A study of Homo sapiens with 6 samples.

Results

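The genes described here are 46 protein-coding genes of band 8q24.3, at the end of the long arm of chromosome 8, that lie on both sides of the lncRNA gene FAM83H-AS1. They were taken from a list of symbols of coding genes of the band that leaves out the ZNF zinc finger genes and FAM83H. No expression value is part of that rule, but the list was chosen with earlier results of these data known. The list does not hold every other coding gene of the stretch: RPL8, NAPRT1, C8orf82, LRRC24 and MAFA are not in it. Of the 46 genes, 45 were listed among the 40173 genes of the count table and 44 were among the 15250 genes with enough counts to be tested. HGH1 was not listed under that symbol, and GSDMD, the pore-forming protein of pyroptosis, had between 2 and 8 counts per library.

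The libraries were made from A549, a cell line of human lung adenocarcinoma, by RNA-Seq. Cells were transfected with an siRNA against FAM83H-AS1 (silenced group, 3 libraries) or with a negative control (control group, 3 libraries) and harvested 24 h later. No other treatment separated the groups, and the labels do not say that the libraries of a group came from separate cultures, so that p-values measure the spread between these libraries. Library totals ranged from 9738291 to 17742643 counts.

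Band 8q24.3 is gene-dense and rich in G and C, and in epithelial cancers it is often gained as a block together with the more proximal band that holds MYC. Its genes share no single pathway. They include factors of RNA processing and translation, scaffolds of cell polarity, mitochondrial enzymes, membrane transporters and subunits of ubiquitin ligases. A lncRNA can act on genes beside its own locus, so the study's silencing of FAM83H-AS1 allows the neighbours to be compared between silenced and control libraries.

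The keratins KRT8 and KRT18 of simple epithelia averaged 1863 and 1316 CPM (counts scaled to a common, normalized library size) in the control libraries and 1621 and 977 CPM in the silenced libraries, and KRT18 fell (log2 fold change -0.43, adjusted p = 0.00266) while KRT8 did not pass the test (-0.20, adjusted p = 0.121). The summed level of the 5 epithelial markers was 2927 to 3450 CPM in the control and 2586 to 2624 CPM in the silenced libraries, and its part in the results was not tested. NQO1 and AKR1C1, known to be high in A549 cells, averaged 191 and 96.3 CPM. AKR1B10 and ALDH1A1, also known to be high in this line, were not: AKR1B10 averaged 0.843 CPM and ALDH1A1 had at most 2 counts in any library. The epithelial markers KRT19, CDH1 and EPCAM averaged only 0.944, 0.780 and 3.86 CPM in the control libraries, so the epithelial sum was nearly all KRT8 and KRT18. Of the fibroblast markers, COL1A1 averaged 27.0 CPM in the control and 31.7 CPM in the silenced libraries, and COL1A2 and DCN had at most 4 counts. The endothelial marker VWF averaged 1.42 and 1.56 CPM, and PECAM1 had at most 2 counts. The erythroid HBB and HBA1 had at most 1 count. Of the leukocyte markers, CD3E was at 0 in all libraries and PTPRC had at most 1 count, while CD68, which is not restricted to leukocytes, averaged 130 CPM in the control and 240 CPM in the silenced libraries, and its part in the results was not tested.

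FAM83H-AS1 itself had 141, 185 and 292 counts with the negative control and 47, 48 and 75 counts with the siRNA. Scaled to library size, this was 15.9 ± 1.39 CPM with the negative control and 4.87 ± 0.617 CPM with the siRNA (mean ± SD, n = 3 each, as for all later values with ±). The log2 fold change was -1.70 (SE 0.148, adjusted p = 7.99e-05, edgeR quasi-likelihood test with Benjamini-Hochberg adjustment, as for every adjusted p given here). The silenced gene was therefore lower in each of the silenced libraries, and no library contradicted its label. Its 4-exon transcript covers chr8:143734140-143746337 on the plus strand of GRCh38, in a locus annotated as IQANK1, and all distances are given from this transcript.

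FAM83H, which encodes a keratin-associated protein, starts 338 bases away on the minus strand, head to head with FAM83H-AS1. Its level was 248, 214 and 245 CPM in the control libraries and 211, 190 and 202 CPM in the silenced libraries. The groups did not overlap, but the log2 fold change of -0.23 (SE 0.0791) had an adjusted p of 0.0680 and did not pass the threshold of 0.05. It passed with DESeq2 (adjusted p = 0.0457), among all genes with at least 1 count (0.0365), with the replicate number as a block (0.0213) and without control replicate 2 (0.0425). With an offset for GC content, described with the GC values, the log2 fold change of FAM83H was -0.055 (adjusted p = 0.587).

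Of the 44 tested genes of 8q24.3, 8 fell after silencing and 0 rose at an adjusted p under 0.05. Among all tested genes, 8.27% fell and 8.75% rose (17.0% in either direction), against 18.2% and 0.00% of the 8q24.3 genes. At an unadjusted p under 0.05, 21 of the 44 were lower and 3 higher, where 15.8% and 16.3% of all tested genes were. The log2 fold change was below 0 for 37 of the 44 genes (84.1%, against 50.1% of all tested genes). The median of the 44 was -0.24 and that of all tested genes was -0.00, and the 8q24.3 values ranged from -1.44 to 0.57. In bulk RNA of this kind, fewer cells with a transcript and less transcript per cell cannot be told apart.

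The 3 silenced libraries of 20 of these genes all lay below the 3 control libraries, as did those of 17.5% of all tested genes. The reverse held for NRBP2 and GPT, and for 19.1% of all tested genes. In the other 22 genes the groups overlapped. Relative to the mean of the control group, the median over the 44 genes was 0.09, -0.10 and -0.03 on the log2 scale in control replicates 1, 2 and 3, and -0.16, -0.40 and -0.18 in silenced replicates 1, 2 and 3. All silenced medians were thus below all control medians, but control replicate 2 and silenced replicate 1 were only a little apart. Only MAF1 also changed by more than 2-fold, a limit passed downward by 0.997% of all tested genes and in either direction by 2.14%.

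**Figure D1:**
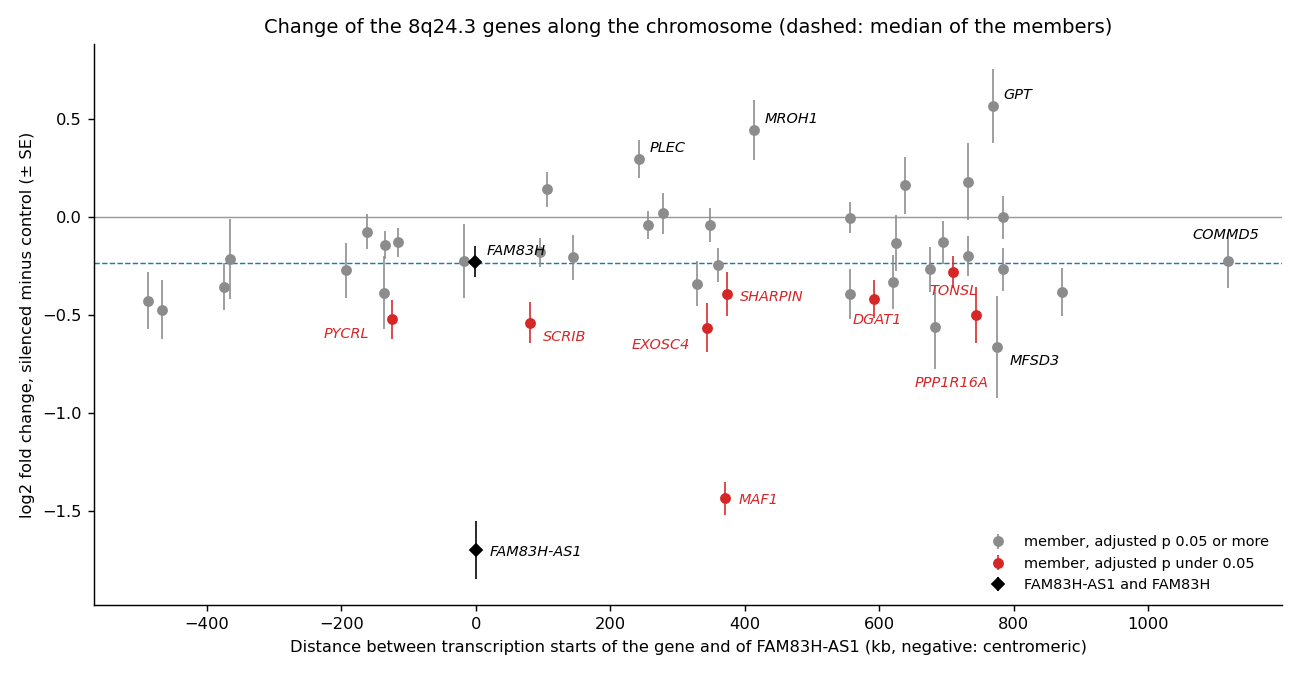
Log2 fold change (silenced minus control, with SE) of the 44 tested genes of 8q24.3 against the distance in kb between their transcription start and that of FAM83H-AS1, with FAM83H-AS1 and FAM83H as black diamonds and genes with an adjusted p under 0.05 in red. Most points lie between 0 and -0.6 on both sides of FAM83H-AS1, around the dashed median of -0.24, and MAF1 stands apart at -1.44.

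Among the genes of RNA processing and translation, all 7 tested members had a log2 fold change below 0, with a median of -0.27, and 2 passed the test. Counts in this and the later groups by role stand beside the 8.27% of all tested genes that fell, and they rest on few genes. MAF1, a repressor of RNA polymerase III, was the most changed gene of the band. It lies on the plus strand at chr8:144104499-144107611, 358 kb from FAM83H-AS1. Its level was 134, 126 and 114 CPM in the control libraries and 46.8, 44.5 and 46.7 CPM in the silenced libraries. The groups were far apart, and the silenced libraries lay close to each other. The log2 fold change was -1.44 (SE 0.0839, adjusted p = 6.59e-06), and it stayed at -1.38 or lower when any single library was left out.

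EXOSC4, a core subunit of the RNA exosome that degrades and trims RNA, lies 332 kb away at chr8:144078626-144080647 on the plus strand. It was counted at 27.1, 23.0 and 21.5 CPM in the control libraries and at 15.1, 14.8 and 18.1 CPM in the silenced libraries. The groups did not overlap, and the log2 fold change was -0.57 (SE 0.124, adjusted p = 0.0117). Without silenced replicate 1 the adjusted p was 0.0544. An antisense transcript on the opposite strand covers 19.5% of its exonic bases, and the counting is not stated to have used strand.

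PUF60, a splicing factor that binds poly(U) tracts, is the third nearest member, 70.01 kb away at chr8:143816344-143829859 on the minus strand. Its level was 237, 208 and 218 CPM in the control libraries and 203, 188 and 194 CPM in the silenced libraries. The groups lay close together but did not overlap, and the log2 fold change of -0.18 did not pass the test (SE 0.0738, adjusted p = 0.117). BOP1, a factor of large ribosomal subunit assembly, averaged 43.8 ± 8.60 CPM in the control and 33.2 ± 2.57 CPM in the silenced libraries (log2 fold change -0.39, adjusted p = 0.0562). CPSF1, the large subunit of the factor that recognizes the polyadenylation signal, averaged 174 ± 25.3 and 144 ± 18.4 CPM (-0.27, adjusted p = 0.133). ZC3H3, a zinc finger protein of mRNA polyadenylation and export, averaged 39.7 ± 7.72 and 32.8 ± 4.22 CPM (-0.27, adjusted p = 0.203). EEF1D, the nucleotide exchange subunit of elongation factor eEF1, averaged 392 ± 22.3 and 355 ± 12.5 CPM (-0.14, adjusted p = 0.181). These 5 genes leaned in the direction of MAF1 and EXOSC4 by less than the test could separate from the spread between libraries. Reads of EEF1D could also be shared with 8 annotated pseudogenes.

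For HGH1, a chaperone of elongation factor eEF2, the table lists the older symbols FAM203A and FAM203B, which stand for a single gene in the current annotation. Summed over both, control libraries had 160, 210 and 286 counts and silenced libraries 166, 160 and 210 counts. Neither entry passed the test (FAM203A -0.21, adjusted p = 0.493, and FAM203B -0.06, adjusted p = 0.923), and they are not counted among the 44.

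Of the 3 genes of DNA replication and repair, TONSL passed the test. TONSL works with MMS22L at stalled replication forks and lies on the minus strand at chr8:144428775-144444444, 682 kb away. Its level was 57.8, 52.0 and 53.4 CPM in the control libraries and 47.0, 41.2 and 46.0 CPM in the silenced libraries. The groups did not overlap and the log2 fold change was -0.28 (SE 0.0834, adjusted p = 0.0407). This was the least stable call, and the adjusted p rose above 0.05 when any single library was left out, to at most 0.112. TOP1MT, the mitochondrial topoisomerase, averaged 38.7 ± 2.77 and 30.2 ± 5.04 CPM (-0.36, adjusted p = 0.0626). RECQL4, a helicase of replication initiation, averaged 66.4 ± 9.11 and 66.1 ± 6.99 CPM, with a log2 fold change of -0.00 (95% interval -0.24 to 0.24).

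The group of cell polarity and the cytoskeleton had 7 members, with a median log2 fold change of -0.22, of which 2 fell. SCRIB, a scaffold of the basolateral membrane that sets apico-basal polarity, is the second nearest member, 44.6 kb from the FAM83H-AS1 transcript at chr8:143790920-143815379 on the minus strand. Its level was 130, 108 and 115 CPM in the control libraries and 79.9, 70.2 and 92.1 CPM in the silenced libraries. All silenced libraries were lower than all control libraries, with a log2 fold change of -0.54 (SE 0.106, adjusted p = 0.00692) that passed the test without any single library. The annotated IQANK1 locus, of which the FAM83H-AS1 transcript is the first part, ends only 276 bases from SCRIB.

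PPP1R16A, a regulatory subunit of protein phosphatase 1, lies 732 kb away at chr8:144477969-144502121 on the plus strand. It was counted at 32.4, 26.4 and 26.1 CPM in the control libraries and at 22.8, 15.4 and 21.5 CPM in the silenced libraries. The groups did not overlap (log2 fold change -0.50, SE 0.145, adjusted p = 0.0366), and the adjusted p rose above 0.05 without control replicate 1 or 2 or silenced replicate 2 or 3, to at most 0.112. A noncoding transcript on the opposite strand covers 52.6% of its exonic bases, and the counting is not stated to have used strand.

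EPPK1, the cytolinker epiplakin, is the fifth nearest member, 111 kb away at chr8:143857324-143878464 on the minus strand. Its level was 142, 132 and 184 CPM in the control libraries and 132, 126 and 140 CPM in the silenced libraries, so that the groups overlapped (log2 fold change -0.21, adjusted p = 0.234). PLEC, the cytolinker plectin, lies next to it and had the opposite sign, with 1727 ± 213 CPM in the control and 2122 ± 183 CPM in the silenced libraries (0.30, SE 0.0982, adjusted p = 0.0601). ARHGAP39 averaged 26.5 ± 4.34 and 20.2 ± 0.511 CPM (-0.38, adjusted p = 0.0529). RHPN1 averaged 12.1 ± 0.747 and 10.4 ± 3.60 CPM (-0.22, adjusted p = 0.501), and the kinesin KIFC2 averaged 9.23 ± 0.349 and 10.5 ± 3.05 CPM (0.18, adjusted p = 0.566). The 2 large cytolinkers therefore did not share a sign, and neither passed the test.

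**Figure D2:**
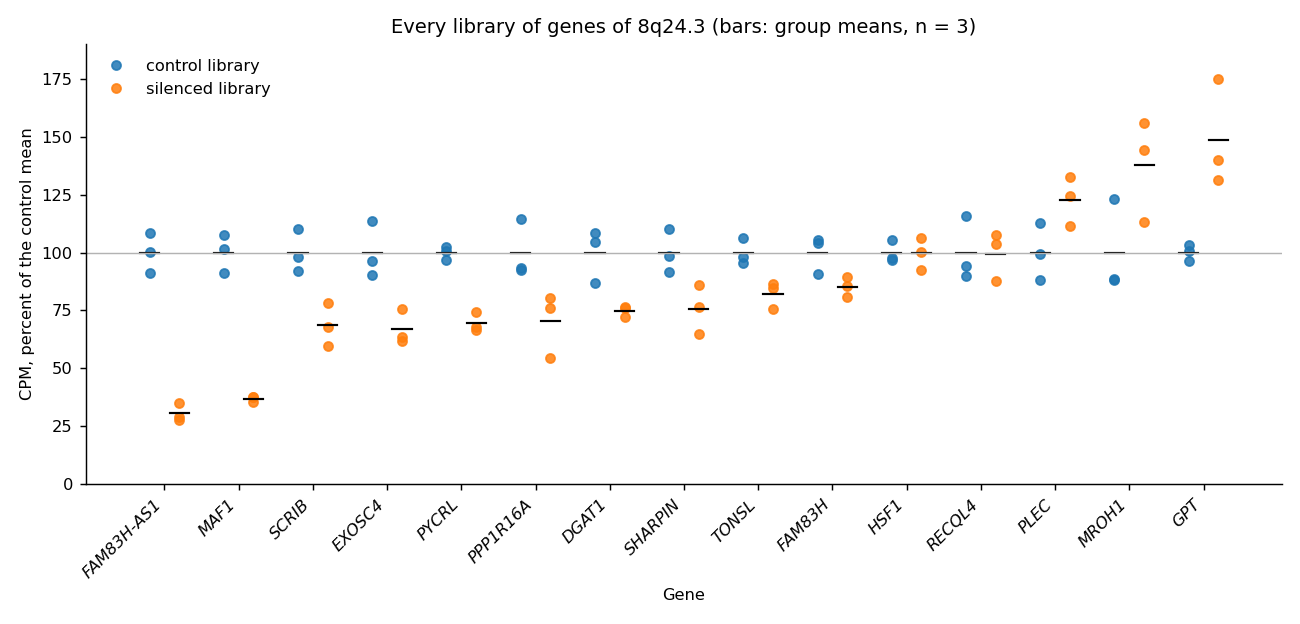
CPM in every library, in percent of the mean of the 3 control libraries, for FAM83H-AS1, the 8 genes of 8q24.3 that fell, FAM83H, HSF1, RECQL4, PLEC, MROH1 and GPT (dots, single libraries, and bars, group means). FAM83H-AS1 and MAF1 stood at 30.6% and 36.9% of the control level, the other 7 genes that fell between 67.0% and 82.2%, and HSF1 and RECQL4 at 99.7% and 99.5%.

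Of 7 genes of metabolism and mitochondria, 2 fell and the median log2 fold change was -0.25. PYCRL (PYCR3 in the current annotation), a pyrroline carboxylate reductase that makes proline, was the only gene on the centromeric side that passed the test. It lies 124 kb away at chr8:143603913-143609773 on the minus strand. Its level was 21.9, 22.2 and 21.0 CPM in the control libraries and 16.1, 14.7 and 14.5 CPM in the silenced libraries. The libraries of each group were close together and the groups well apart (log2 fold change -0.52, SE 0.101, adjusted p = 0.00635), and the call held without any single library.

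DGAT1, the acyltransferase of the last step of triglyceride synthesis, lies 568 kb away at chr8:144314584-144326910 on the minus strand. It was counted at 44.2, 35.5 and 42.7 CPM in the control libraries and at 31.0, 29.4 and 31.1 CPM in the silenced libraries. The groups did not overlap (log2 fold change -0.42, SE 0.0978, adjusted p = 0.0153), and the adjusted p was 0.0539 without control replicate 3 and 0.0542 without silenced replicate 1.

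CYC1, the cytochrome c1 subunit of respiratory complex III, averaged 282 ± 29.3 and 238 ± 16.4 CPM (-0.25, adjusted p = 0.0774). OPLAH, the oxoprolinase of glutathione turnover, averaged 26.5 ± 3.69 and 20.9 ± 0.943 CPM (-0.34, adjusted p = 0.0651). TSTA3, which makes GDP-fucose, averaged 96.4 ± 3.71 and 88.0 ± 4.21 CPM (-0.13, adjusted p = 0.254). In each of these 3 genes the groups did not overlap, though none passed the test. GPT, the cytosolic alanine aminotransferase, had the highest log2 fold change of the band, with 4.30 ± 0.145 CPM in the control and 6.39 ± 0.993 CPM in the silenced libraries (0.57, SE 0.187, adjusted p = 0.0594). ADCK5, a mitochondrial kinase-like protein, averaged 11.2 ± 1.87 and 12.5 ± 0.656 CPM (0.16, adjusted p = 0.477).

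None of the 6 tested genes of membrane transport and trafficking passed the test, although all 6 had a log2 fold change below 0 (median -0.23). The zinc importer SLC39A4 averaged 6.14 ± 1.38 and 4.13 ± 0.541 CPM (-0.56, adjusted p = 0.0972). MFSD3, a major facilitator family transporter, averaged 11.0 ± 3.21 and 6.77 ± 2.24 CPM (-0.67, SE 0.260, adjusted p = 0.104), the second lowest value of the band but also the one with the largest SE. The riboflavin transporter SLC52A2 averaged 58.4 ± 9.52 and 46.2 ± 8.15 CPM (-0.33, adjusted p = 0.125). VPS28, a subunit of the endosomal sorting complex ESCRT-I, averaged 49.6 ± 2.85 and 45.3 ± 7.18 CPM (-0.13, adjusted p = 0.456). GRINA, a membrane protein of the TMBIM family, averaged 179 ± 9.57 and 174 ± 4.74 CPM (-0.04, 95% interval -0.20 to 0.11). GPAA1, a subunit of the transamidase that attaches GPI anchors, averaged 125 ± 9.58 and 121 ± 9.76 CPM (-0.04, 95% interval -0.23 to 0.15). The transporters of low level thus had the larger log2 differences and the wider errors, and the 2 well expressed membrane proteins GRINA and GPAA1 lay close to 0.

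Among 8 tested genes of signalling, ubiquitin and stress, the median log2 fold change was -0.18 and 1 gene fell. SHARPIN, a subunit of the LUBAC ubiquitin ligase, lies 352 kb away at chr8:144098633-144108124 on the minus strand. It was counted at 44.7, 37.1 and 39.9 CPM in the control libraries and at 26.4, 31.0 and 34.9 CPM in the silenced libraries. The groups did not overlap (log2 fold change -0.39, SE 0.113, adjusted p = 0.0362), but the adjusted p rose above 0.05 without control replicate 1 or 3 or silenced replicate 1 or 2, to at most 0.135. The whole of MAF1 lies within the SHARPIN locus on the opposite strand, and 40 exonic bases are common to both genes, 1.68% of those of MAF1. Without SHARPIN, 7 of 43 genes fell and the median was -0.23.

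The nearest member of all was MAPK15, an atypical MAP kinase, 11.7 kb away at chr8:143716259-143722458 on the plus strand. Its level was 8.33, 7.08 and 6.68 CPM in the control libraries and 6.84, 4.81 and 7.06 CPM in the silenced libraries. The groups overlapped (log2 fold change -0.23, 95% interval -0.64 to 0.19, adjusted p = 0.442). NRBP2, a pseudokinase, is the fourth nearest, 87.3 kb away at chr8:143833594-143840974 on the minus strand. Its level was 25.9, 25.4 and 27.9 CPM in the control libraries and 30.5, 27.9 and 29.1 CPM in the silenced libraries, with all silenced libraries above all control libraries by a narrow margin (log2 fold change 0.14, adjusted p = 0.306). The 5 nearest members therefore held 1 gene that fell, SCRIB, and 4 that did not pass the test.

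HSF1, the master transcription factor of the heat shock response, averaged 111 ± 5.38 CPM in the control and 111 ± 7.69 CPM in the silenced libraries, with a log2 fold change of -0.00 (95% interval -0.18 to 0.17). LRRC14, a leucine-rich repeat protein, averaged 33.4 ± 3.56 and 27.6 ± 2.76 CPM (-0.27, adjusted p = 0.113). The F-box protein FBXL6 averaged 15.8 ± 1.5 and 14.5 ± 2.54 CPM (-0.13, adjusted p = 0.551). It shares 1069 exonic bases with SLC52A2 on the opposite strand. PARP10, a mono-ADP-ribosyltransferase, averaged 26.9 ± 2.61 and 27.3 ± 2.21 CPM (0.02, adjusted p = 0.933), and COMMD5, a COMM domain protein and the most distant member, averaged 23.7 ± 4.14 and 20.2 ± 2.69 CPM (-0.22, adjusted p = 0.298).

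The 6 remaining genes encode DNA-binding or less known proteins, and none passed the test. The zinc finger genes GLI4 and ZFP41 averaged 10.8 ± 1.23 and 14.9 ± 2.17 CPM in the control libraries and 7.69 ± 0.817 and 11.1 ± 1.35 CPM in the silenced libraries. Their groups did not overlap, with log2 fold changes of -0.48 (adjusted p = 0.0513) and -0.43 (adjusted p = 0.0674). TIGD5, derived from a tigger transposase, averaged 13.1 ± 2.90 and 10.01 ± 1.99 CPM (-0.39, adjusted p = 0.176), and the cysteine- and histidine-rich CYHR1 averaged 24.6 ± 1.31 and 21.4 ± 1.93 CPM (-0.20, adjusted p = 0.207). The HEAT-like repeat genes MROH1 and MROH6 differed in sign, with 25.1 ± 5.06 and 34.6 ± 5.58 CPM for MROH1 (0.44, adjusted p = 0.0674) and 62.0 ± 2.83 and 58.9 ± 6.17 CPM for MROH6 (-0.07, adjusted p = 0.599).

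Distance from FAM83H-AS1 did not order the changes. Of the 25 genes within 500 kb, 5 fell and the median log2 fold change was -0.23. Of the 18 genes between 500 kb and 1 Mb, 3 fell and the median was -0.27. Across the 44 genes, the log2 fold change had a Pearson's r of 0.015 and a Spearman's rho of -0.039 with distance, given as a description because the genes share libraries. On the centromeric side, all 11 genes were below 0 with a median of -0.27 and 1 fell, and on the telomeric side 7 of 33 fell with a median of -0.22. By strand, 3 of 19 genes on the plus strand and 5 of 25 on the minus strand fell.

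The genes of the band were also alike in base composition. The GC content of their longest transcript ranged from 54.8% to 68.4% with a median of 64.6%, compared with a median of 48.8% over all tested genes with an annotated transcript. Across all tested genes, the median log2 fold change went down with GC content, from 0.08 under 40% to 0.02 between 45% and 50%, -0.04 between 55% and 60%, -0.10 between 60% and 65%, and -0.20 at 65% and above. Of the 874 tested genes with a GC content between the quartiles of the 8q24.3 genes (62.6% and 66.7%), 14.1% fell, 2.86% rose, 69.8% were below 0 and the median was -0.14. The median of the 44 tested members, -0.24, was lower than that of genes of like GC content. The difference did not exceed the SD of the members' median between replicate libraries, which was 0.116. The members' share of falling genes was closer to that of genes of like GC content than to that of all tested genes. The 13 other tested genes of the same stretch, with a median GC content of 63.1%, had a median of -0.01. Of them 0 fell, against 8.27% of all tested genes, a share that 13 genes are too few to be set apart from. At an unadjusted p under 0.05, 3 of the 13 were lower and 0 higher. Within the band itself, the log2 fold change had an r of 0.107 and a rho of 0.125 with GC content (n = 44 genes).

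**Figure D3:**
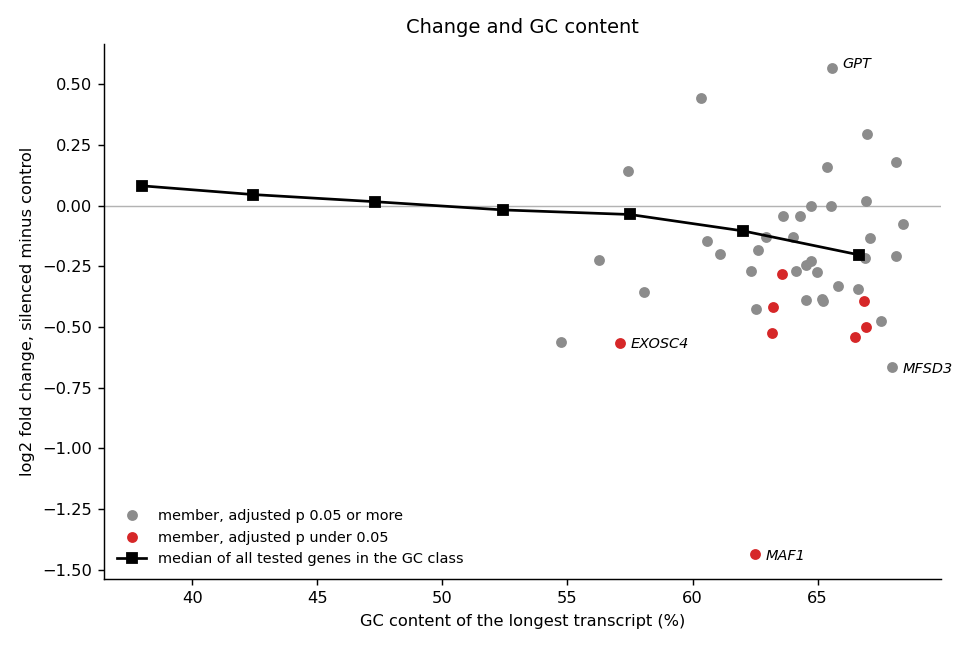
Log2 fold change (silenced minus control) against the GC content of the longest transcript for the 44 tested genes of 8q24.3 (dots, red where the adjusted p was under 0.05), with the median of all tested genes in each GC class (squares). The line of medians descends from 0.08 to -0.20, nearly all genes of the band lie at its GC-rich end, and MAF1 lies far below it.

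When the trend with GC content was removed in each library by an offset, the median log2 fold change of the 44 genes was -0.12. With the offset 6 of the 44 genes fell, against 9.52% of all tested genes. SCRIB, EXOSC4, MAF1, DGAT1, PPP1R16A and PYCRL still fell, with MAF1 at -1.33, SCRIB at -0.36 (adjusted p = 0.00599) and PYCRL at -0.41 (adjusted p = 0.0185). SHARPIN at -0.20 (adjusted p = 0.219) and TONSL at -0.16 (adjusted p = 0.104) no longer passed. PLEC at 0.48 (adjusted p = 0.00426), GPT at 0.72 (adjusted p = 0.0170) and MROH1 at 0.52 (adjusted p = 0.0498) rose with the offset. These were 3 of the 44 genes, and 1554 of all 15250 tested genes rose in the same fit. The part of base composition in the result was not tested beyond this adjustment.

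Per kb of the longest transcript, the control levels of the 45 listed genes spanned from 0.117 CPM for GSDMD to 154 CPM for CYC1. After CYC1 followed PLEC (113), EEF1D (105), PUF60 (91.7), GRINA (91.1), MAF1 (71.1) and GPAA1 (60.1 CPM per kb). SLC39A4, GPT, TIGD5 and KIFC2 lay between 2.21 and 2.53 CPM per kb, the lowest of the tested genes. After silencing MAF1 stood at 26.2 CPM per kb, and the genes that fell held ranks from 6 to 30 among the 45 control levels. With the median transcript length of each gene in place of the longest, the order differed: EEF1D was first at 497 CPM per kb, followed by CYC1 (272), CPSF1 (265), PUF60 (247) and GRINA (224), with MAF1 at 127. By the longest transcript, the levels of the neighbours PUF60 and GRINA in this order differed by less than the SD of either.

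**Figure D4:**
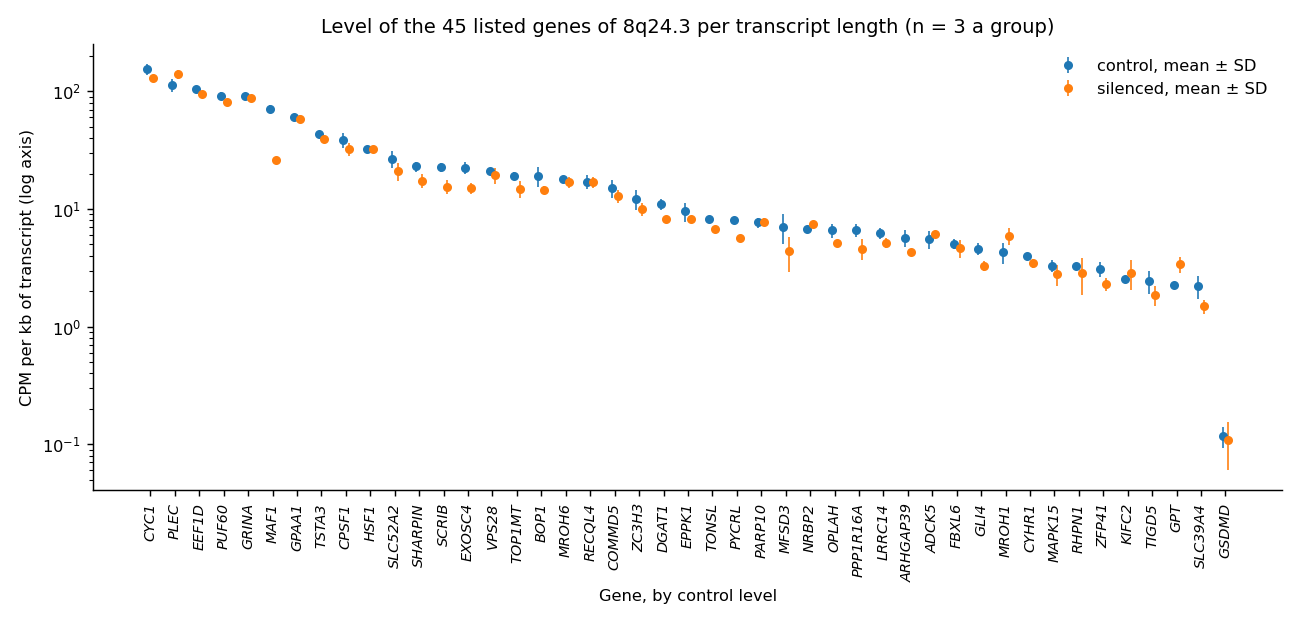
Level of the 45 listed genes of 8q24.3 in CPM per kb of the longest transcript (log axis, mean and SD of 3 libraries) in control and silenced cells, ordered by the control level. Levels run from 154 CPM per kb for CYC1 to 0.117 for GSDMD, and MAF1, with 71.1 in the control and 26.2 in the silenced cells, shows the widest gap between the groups among the well expressed genes.

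A list of 59 genes elsewhere in the genome, called partners here, held genes whose proteins work with members, 11 targets of HSF1 and 2 enzymes related to PYCRL. Of the 59 genes, 58 were tested, with a median log2 fold change of -0.06. Of these, 6 fell and 4 rose, which is 17.2% in either direction, close to the 17.0% of all tested genes. As a list the partners thus did not stand apart from all tested genes, and their values are given as a description. In the RNA exosome of EXOSC4, 1 of 10 partners fell, EXOSC5, from 53.2 ± 6.71 to 34.7 ± 2.34 CPM (-0.61, adjusted p = 0.00312), a value similar to that of EXOSC4 itself. In complex III, where CYC1 was at -0.25, UQCRC1 fell from 396 ± 11.6 to 288 ± 12.4 CPM (-0.46, adjusted p = 0.00160) and UQCRQ from 154 ± 4.76 to 128 ± 10.7 CPM (-0.27, adjusted p = 0.0388), and the other 6 of 8 subunits did not pass the test. PES1, which forms the PeBoW complex of ribosome assembly with BOP1, fell by 0.29 on the log2 scale (adjusted p = 0.0358).

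In ESCRT-I, where VPS28 was at -0.13, TSG101 rose from 30.6 ± 2.71 to 43.4 ± 5.53 CPM (0.50, adjusted p = 0.0115), VPS37B by 0.38 (adjusted p = 0.0151) and VPS37C by 0.48 (adjusted p = 0.00908). SYMPK, the scaffold beside CPSF1 in the cleavage and polyadenylation machinery, rose by 0.28 (adjusted p = 0.0397). Of 11 targets of HSF1, the mitochondrial chaperonins HSPD1 (-0.63, adjusted p = 7.32e-04) and HSPE1 (-0.31, adjusted p = 0.0350) fell and the other 9, with HSPA1A, HSPH1 and DNAJB1 among them, did not pass the test. None of the tested partners of SHARPIN, SCRIB, TONSL, PYCRL, GPAA1 and EEF1D passed the test. Within the exosome, complex III and ESCRT-I, some subunits thus passed the test and others did not.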

How the data were processed

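A549 libraries (total RNA, Ion Proton) were mapped and counted per gene by the authors with MapSplice, whose version is not given in the sources used here. The deposited table holds these counts without normalization, and the submitters' processing notes name GRCh37. Strand and multiple mapping are not stated. Differential expression was tested with edgeR 4.0.16 in R 4.3.3 (filterByExpr, TMM, quasi-likelihood F test, Benjamini-Hochberg adjustment over 15250 genes). SEs were derived from the log2 fold change and its F statistic, and an exact permutation test of 3 against 3 libraries cannot go below p = 0.1. CPM used the TMM-normalized library size (factors 0.955 to 1.02). Replicate libraries were further apart than sampling of reads alone would give (chi-square per degree of freedom 3.92 to 26.9), most between control replicate 3 and the others.

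Positions, lengths, overlaps and GC content came from GENCODE 29 on GRCh38, in which 30436 of 40173 symbols matched a single gene, so that distances are not those of the build used for counting. GC content was available for 91.9% of tested genes and for 44 of 44 tested members. The GC offset was a lowess curve per library (span 0.3). Every member was named. The value of every library was given for FAM83H-AS1, FAM83H, members with an adjusted p under 0.05 and the 5 nearest members. Members, partners and other lists were chosen with earlier results of these data known. The fit was tested on simulated data. Alternatives were RLE size factors, library size only, DESeq2 1.42.0, other filters on low counts, a replicate block, the GC offset, both together, thinning to the smallest library, leaving out each library, stricter thresholds, and other measures of correlation, distance and length. The removal of SHARPIN and the split by a word in the 3′-UTR were chosen after seeing the data.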

Additional observations from a re-analysis of the deposited data

How the results depend on the processing

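The number of 8q24.3 genes that fell was 8 and stayed between 6 and 11 with DESeq2, RLE size factors, library size only, the GC offset, at least 10 counts in every library, and thinned counts. In these settings between 6.5% (library size only) and 9.52% (GC offset) of all tested genes fell. The number of 8q24.3 genes that fell was 19 among all genes with at least 1 count, 3 at an adjusted p under 0.01, 1 with a fold change over 2 as well, and 4 to 8 when 1 library was left out (5 without control replicate 1, 4 without silenced replicate 1 and 5 without silenced replicate 2). Of all tested genes, 7.33% fell with at least 1 count, and 3.8% to 6.48% with 1 library left out (3.8% without silenced replicate 1). The number that rose, 0, became 2 with DESeq2, 3 with the GC offset, 2 among all genes with at least 1 count, 1 with at least 10 counts in every library, 3 with library size only, and 0 to 2 when 1 library was left out. Of all tested genes, 1165 of 15250 rose with DESeq2 and 1554 of 15250 with the GC offset. With at least 1 count 1554 of 25864 rose, and with at least 10 counts 1329 of 14144. Over all tested genes, 2595 passed in either direction, 903 at an adjusted p under 0.01, 326 with a fold change over 2 as well, and 1225 to 1962 with 1 library left out, 1225 without silenced replicate 1. With library size only, 991 fell and 1555 rose, and the median of all genes was 0.03. Of the partners, 10 passed, compared with 16 among all genes with at least 1 count, 4 at an adjusted p under 0.01, 0 with a fold change over 2 as well, and 5 to 9 with 1 library left out. The median of the 44 genes stayed between -0.29 and -0.16 with 1 library left out.

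With the GC offset, the median was -0.12, that of genes within 500 kb -0.087, that of genes from 500 kb to 1 Mb -0.14, and the correlation with GC content 0.252. Genes near 0 changed sign: with the offset MROH6 was at 0.13, GRINA at 0.086, GPAA1 at 0.10, HSF1 at 0.14, FBXL6 at 0.044 and RECQL4 at 0.16, and with library size only HSF1 and RECQL4 were both at 0.031. With 1 library left out, GPAA1 ranged from -0.10 to 0.020, HSF1 from -0.051 to 0.047, RECQL4 from -0.073 to 0.11, PARP10 from -0.059 to 0.079, GRINA from -0.077 to 0.00032 and KIFC2 from -0.0014 to 0.39. The cause was not tested.

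Same-numbered control and silenced libraries deviated together with correlations of 0.124, 0.149 and 0.067, and each library correlated best with its own number, but the labels name no shared culture or day, so the libraries were not treated as paired. With the replicate number as a block, 18 of the 44 genes fell and 1 rose, PLEC (0.30, adjusted p = 0.00542), against 11.4% of all tested genes that fell, and 18 partners passed. With the block and the GC offset together, 6 fell and 2 rose, the median was -0.12, those by distance -0.087 and -0.14, and the correlation with GC content 0.251. Of all 15250 tested genes, 10.5% fell and 1673 rose in this fit. MROH6 was then at 0.13, EPPK1 at 0.012, GRINA at 0.088, GPAA1 at 0.10, HSF1 at 0.14, FBXL6 at 0.042 and RECQL4 at 0.16.

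Genes with few counts, such as GPT, SLC39A4, MAPK15 and MFSD3, had wide errors, and their calls could depend on the setting: MFSD3 passed among all genes with at least 1 count (adjusted p = 0.00214), and GPT with library size only and with at least 10 counts in every library (adjusted p = 0.0491 in both). Where exons of genes on opposite strands overlap, reads in the shared bases cannot be told apart without strand. FBXL6 and SLC52A2 share 1069 exonic bases, and MAF1 and SHARPIN share only 40. The median control level per kb over the listed genes was 9.56 CPM by the longest and 34.2 CPM by the median transcript length.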

Other observations

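The same stretch of 8q24.3 held 13 other tested genes that were left out of the members, most of them zinc finger genes, with a median GC content of 63.1%. None of them passed the edgeR test at an adjusted p under 0.05, where 8.27% of all tested genes fell, and their median log2 fold change was -0.01. At an unadjusted p under 0.05, 3 were lower and 0 higher. Several had a low level and a wide error, such as MAFA with 1.66 CPM in the control libraries and an SE of 0.316. The ribosomal protein gene RPL8, the most abundant of them, averaged 1497 ± 112 CPM in the control and 1293 ± 133 CPM in the silenced libraries (-0.21, adjusted p = 0.127). C8orf82 and RHPN1-AS1 were at -0.59 (adjusted p = 0.139) and -0.60 (adjusted p = 0.205), while ZNF34 and ZNF7 were at 0.30 (adjusted p = 0.396) and 0.25 (adjusted p = 0.156). The 394 tested genes on the rest of chromosome 8 had a median of 0.04.

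The word CCAATAA, known from earlier results of these data, was searched on the transcript strand of annotated 3′-UTRs. It occurred in 9 of the 44 tested genes of the band (20.5%), MAF1 among them, and in 12.6% of all tested genes with an annotated 3′-UTR. All tested genes with the word showed a median change of -0.08 (log2) and 21.9% of them fell, compared with 0.01 and 7.29% without it. Because the word was known from these same data, this difference is a description and cannot serve as a test. The entry of the silenced FAM83H-AS1 is among the genes with the word, through an annotated coding transcript of the IQANK1 locus to which it was matched. The FAM83H-AS1 transcript used for the distances was not searched on its own. Within the band the 9 genes with the word had a median of -0.13 and 1 of them fell, and the 35 without it had a median of -0.27 and 7 of them fell.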
